A study of Mus musculus with 2 samples.

Results

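The miRNAs described here are miR-143 and miR-145, the miR-199a-3p and miR-199a-5p arms, and miR-214, measured in extracellular vesicles (EVs) that cultured mouse astrocytes released. They were chosen by name, as the main-strand probes rno-miR-143, rno-miR-145, rno-miR-199a-3p, rno-miR-199a-5p and rno-miR-214 of a rat code set, and all 5 names were found among its 420 miRNA probes. The vesicles came from primary cortical astrocytes of postnatal day 1 GFAP-EGFP mice, which carry a green fluorescent protein driven by the promoter of GFAP, an astrocyte gene. The labels' protocol also names C57B6J mice as a source of the cultures. IL-1β EVs were collected 2 h after IL-1β, a cytokine of brain inflammation, was added at 200 ng per ml in EV-free medium to cultures pooled from 8 to 10 flasks. Control EVs had no treatment and were all particles released over 24 h. The cultures were described as 98% GFAP-positive and were used between passages 3 and 10. Each group was 1 sample, so no difference below was tested against replicate spread, and treatment and collection time cannot be told apart.

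MicroRNAs are short RNAs that repress messenger RNAs, mainly through pairing of the seed, bases 2 to 8 of the mature strand. The neighbouring miR-143 and miR-145 are made from 1 primary transcript and are best known from smooth muscle cells and pericytes, the mural cells of blood vessels, and from fibroblasts, where they promote the contractile state. The miR-199a and miR-214 hairpins are also transcribed together, from a long noncoding RNA antisense to a dynamin gene, and are known from mesenchyme, fibroblasts and fibrosis. In brain tissue both groups are generally associated with vessels and meninges rather than with astrocytes.

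In RefSeq's GRCm38.p6 annotation of the mouse, the hairpins of miR-143 and miR-145 both lie inside the noncoding gene Carmn, with 1301 bases between them. Mir199a-2 (chr1:162217814-162217923) and Mir214 (chr1:162223368-162223477) both lie inside the noncoding gene Dnm3os, with 5444 bases between them. A second miR-199a hairpin, Mir199a-1 (chr9:21496495-21496564), lies inside the dynamin gene Dnm2, and Mir199b (chr2:32318460-32318569) inside Dnm1. The RefSeq mature sequences of the miR-199a and miR-214 strands are given 5′ to 3′ because the results turn on how these strands differ, with the seed in capitals.
miR-199a-5p: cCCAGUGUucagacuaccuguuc
miR-199a-3p: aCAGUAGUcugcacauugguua
miR-214-3p: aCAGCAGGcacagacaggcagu
On the plus strand of chromosome 1 these are chr1:162217844-162217866, chr1:162217883-162217904 and chr1:162223438-162223459. Both miR-199a strands are the same from Mir199a-1 and Mir199a-2, and the miR-199a-3p sequence is also that of miR-199b-3p, so the miR-199a-3p count can hold RNA from 3 hairpins. The miR-199a-3p and miR-214 strands share their first 4 bases, and their seeds differ at 2 positions. None of the 3 strands shares its seed with another of the 3. Their lengths are 23, 22 and 22 bases and their GC contents 52.2%, 40.9% and 59.1%, in the order listed. The probes carry rat names, and whether the mouse strands match the rat probes base for base was not tested.

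The nCounter assay counts colour-coded reporters bound to single tagged RNA molecules. The 420 miRNA probes summed to 13514 counts in the IL-1β EVs and 16812 in the control EVs, with a median of 5 counts per probe in both. A count passed as above background if it was over the mean + 2 SD of its sample's 8 negative controls, 9.67 counts in the IL-1β EVs and 6.41 in the control EVs. Intervals are at 95% and cover counting error only (exact Poisson for counts, exact binomial for shares and ratios). Counts of different probes also depend on how well each RNA is tagged and captured, so an order of probes is an order of counts, not of RNA copies.

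Of the 5 miRNAs, 4 were well above the negative-control thresholds in both preparations, and miR-143 was above neither. Of all 420 miRNA probes, 139 were above the thresholds in both. Detected means above these thresholds here, and a stricter view of background is given below. Together the 5 held 6.24% of all miRNA counts in the IL-1β EVs (843 counts, 95% CI 5.84 to 6.66) and 8.71% in the control EVs (1465 counts, 8.29 to 9.15). The miR-145, miR-199a-3p and miR-199a-5p counts were lower in the IL-1β EVs, while those of miR-214 were nearly equal. In bulk vesicle RNA, fewer vesicles from a cell type and less of a miRNA per vesicle cannot be told apart.

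The rno-miR-145 probe gave 397 counts in the IL-1β EVs (interval 359 to 438) and 775 in the control EVs (721 to 832). It was the 6th highest miRNA probe in the IL-1β EVs and the 4th in the control EVs, and its intervals did not overlap. Its co-transcribed partner rno-miR-143 gave 3 counts in the IL-1β EVs (interval 0.619 to 8.77) and 4 in the control EVs (1.09 to 10.2). Both miR-143 counts were close to the negative-control means of 3.13 in the IL-1β EVs and 3.25 in the control EVs, so no ratio is given for it. The miRNA pair of 1 transcript was thus among the highest and among the undetected counts of the same samples, and whether the miR-143 probe captures the mouse strand was not tested.

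The rno-miR-199a-3p probe gave 246 counts in the IL-1β EVs (216 to 279) and 425 in the control EVs (386 to 467), at rank 11 in the IL-1β EVs and rank 10 in the control EVs. The other arm of the same hairpins, rno-miR-199a-5p, gave 87 counts in the IL-1β EVs (69.7 to 107) and 157 in the control EVs (133.4 to 183.6). Neither arm's intervals overlapped between the preparations, before any scaling. How many of all probes did the same was not counted, here or for miR-145. The rno-miR-214 probe gave 110 counts in the IL-1β EVs (90.4 to 132.6) and 104 in the control EVs (85.0 to 126.01), and these intervals overlapped almost wholly. The order of counts was therefore not the same: miR-214 stood above miR-199a-5p in the IL-1β EVs and below it in the control EVs. In the IL-1β EVs the intervals of this pair overlapped, and in the control EVs they did not.

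**Figure D1:**
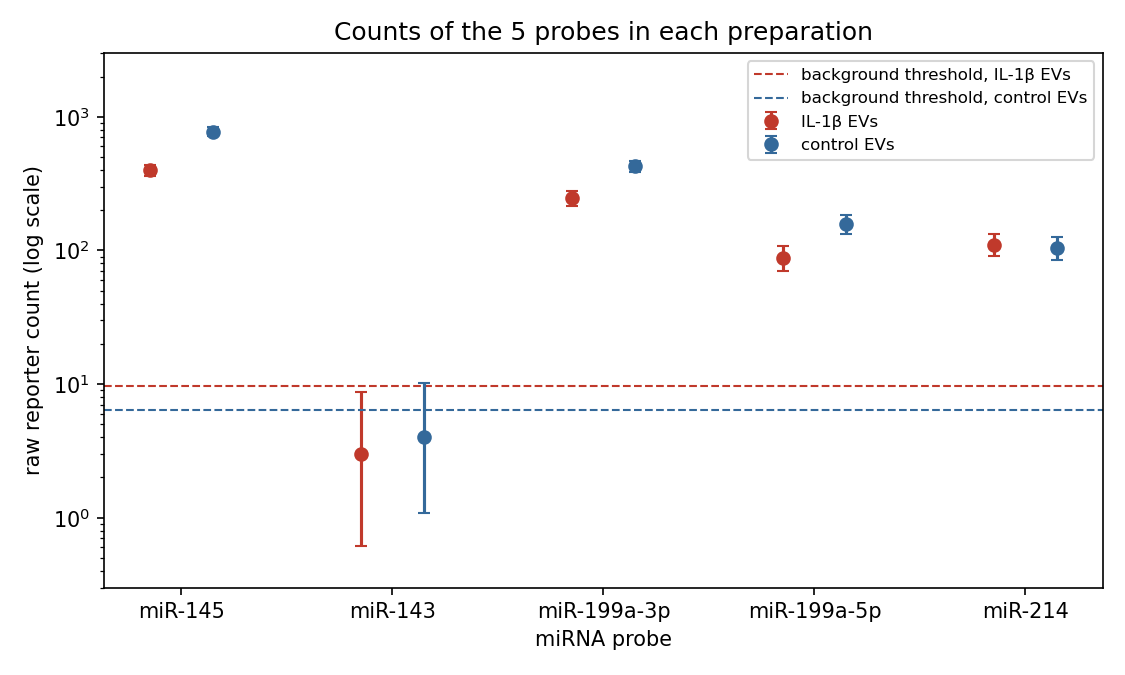
Raw reporter counts (log axis) of the 5 probes in the IL-1β EVs and control EVs, with exact 95% Poisson intervals; dashed lines mark each sample's background threshold. The miR-145 counts are 397 in the IL-1β EVs and 775 in the control EVs, while both miR-143 counts, 3 and 4, lie below the thresholds.

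Negative controls are not the only view of background. For 69 of the 420 probes, no mouse miRNA gene in the RefSeq table has the same number, and their counts reached 270 in the IL-1β EVs and 238 in the control EVs (medians 15 in the IL-1β EVs and 13 in the control EVs). None of the 69 reached the miR-145 count in either sample, and 1 in the IL-1β EVs and 0 in the control EVs reached that of miR-199a-3p. The miR-199a-5p count was reached by 6 in the IL-1β EVs and 3 in the control EVs, and the miR-214 count by 4 in each. Of the 4, miR-145 was thus above all of these probes in both samples, and miR-199a-3p in the control EVs, while the miR-199a-5p and miR-214 counts lay inside their upper tail. Whether a mouse miRNA of another number matches any of the 69 probes was not tested, so their counts need not all be background. This view of background was chosen after the counts were seen.

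Ratios were scaled on the geometric means of the 100 most highly counted miRNA probes, which differed by a factor of 0.875 (IL-1β over control), and background was left in. Probes with no mouse gene of the same number were among these 100, and the factor was not recomputed without them. The miR-145 ratio of IL-1β over control was 0.585 (0.517 to 0.661), or 1.71-fold lower in the IL-1β EVs. That of miR-199a-3p was 0.661 (0.563 to 0.776) and that of miR-199a-5p 0.633 (0.481 to 0.828). These 3 intervals lay below 1 and overlapped each other. Intervals excluding 1 were not particular to the members. Among other abundant probes, those of let-7b, miR-23a and miR-99a also lay below 1, and those of let-7c and miR-466c lay above it. The share of all probes with such intervals was not counted. The miR-214 ratio was 1.21, and with the scaling on the 100 probes its interval of 0.916 to 1.60 spanned 1. With positive-control scaling the miR-214 ratio was 0.702, below that interval. Against the scaling on the 100 probes, positive controls moved every log2 ratio by -0.78, the median ratio by -0.27, no scaling by -0.19 and total counts by 0.12. The ratio of the summed 5 was 0.657 (0.603 to 0.716).

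None of these probes was at least 2-fold apart with an interval excluding 1, a rule by which, over 160 probes that have a ratio or bound, 5.62% were higher and 9.38% lower in the IL-1β EVs. With positive-control scaling 3 members passed the 2-fold rule as lower, beside 24% of 192 probes, and with the median ratio 1 did, beside 14.5% of 166. At 1.5-fold and the first scaling, the rule called 11.9% higher and 16.2% lower, and 3 of the 4 detected members were among the lower probes (miR-145, miR-199a-3p and miR-199a-5p). The median log2 ratio of the 4 detected members was -0.63, beside 0.24 over the 160 probes. Of the 139 probes above background in both samples, 17 had a lower ratio than miR-145, 20 than miR-199a-5p and 22 than miR-199a-3p, while 70 had a lower ratio than miR-214. The first 3 stood in the lower part of the range and miR-214 in its middle. Both the 139 and the 160 include probes with no mouse gene of the same number, and these places were not recomputed without them.

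**Figure D2:**
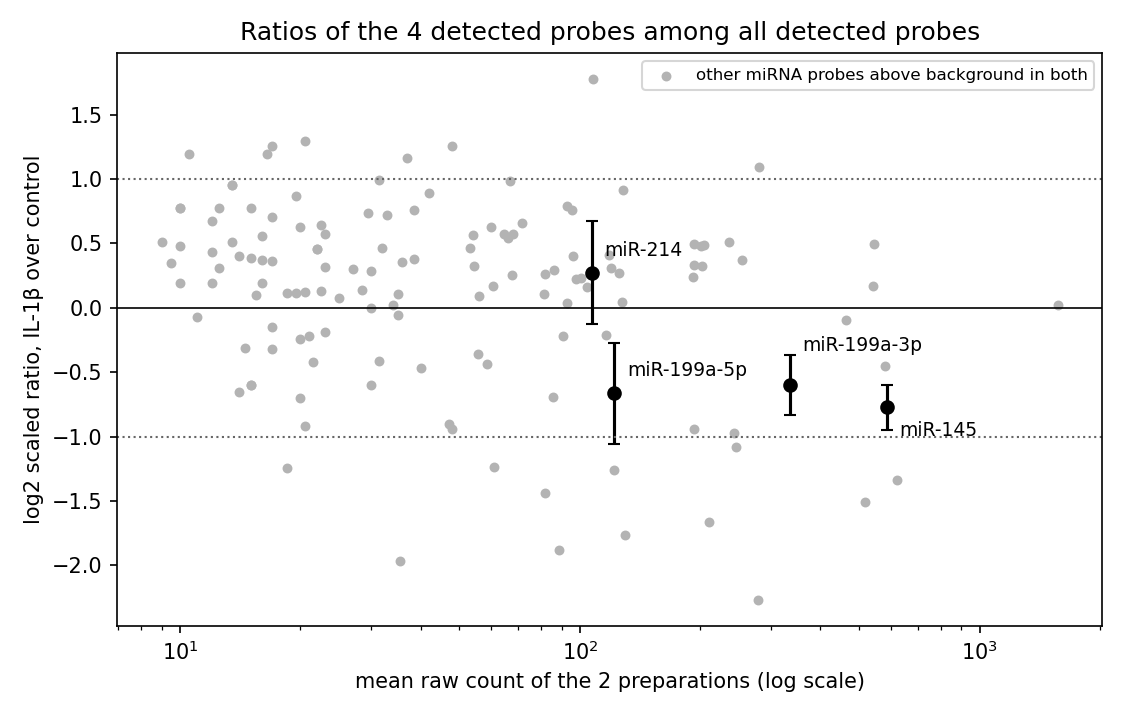
Scaled log2 ratio of IL-1β over control against mean raw count (log axis) for the 139 probes above background in both samples; black points are the 4 detected members with 95% counting intervals, and dotted lines mark 2-fold. The miR-145 and miR-199a points lie between 0 and the lower dotted line, and miR-214 lies at 0.27.

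The scaling sets the level of every ratio, so the members were also compared with each other, which needs no scaling. The ratio of ratios of miR-199a-3p over miR-199a-5p was 1.04 (exact conditional interval 0.762 to 1.44). The counts of the arms stood at 2.83 to 1 in the IL-1β EVs and 2.71 to 1 in the control EVs, so no difference between the arms of this hairpin was detectable at this depth. By contrast, miR-214 over miR-199a-3p gave 1.83 (1.32 to 2.52), and miR-214 over miR-199a-5p gave 1.91 (1.29 to 2.83). Relative to the counts of the arms of the hairpin it shares a transcript with, the miR-214 count was therefore higher in the IL-1β EVs than in the control EVs. The miR-214 and miR-199a-5p counts lay inside the upper tail of probes with no mouse gene of the same number. The 4 such probes that reached the miR-214 count had scaled ratios of 1.30 (miR-3583-3p), 1.39 (miR-3594-3p), 1.33 (miR-3594-5p) and 1.25 (miR-628). That of miR-214 was 1.21. Any off-target part of the miR-214 and miR-199a-5p counts was not tested, and the ratios of ratios with miR-214 would hold it. Part of the miR-199a counts can come from Mir199a-1 and Mir199b, which lie outside that transcript, and their part was not tested.

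The pairs with miR-145 were added after the counts were seen. Its ratio of ratios was 0.885 over miR-199a-3p (0.723 to 1.08) and 0.924 over miR-199a-5p (0.687 to 1.25), both spanning 1. Over miR-214 it was 0.484 (0.357 to 0.657). Of the 6 member pairs, the 3 that hold miR-214 were at least 1.5-fold from 1 with an interval excluding 1. The same held for 61.7% of the 630 pairs among the 36 probes with a mean count of at least 100, so a spread of this size between probes was common in these samples. Within the summed 5, the miR-214 share was 13.0% in the IL-1β EVs (10.8 to 15.5) and 7.10% in the control EVs (5.84 to 8.54), and the miR-145 share 47.1% in the IL-1β EVs (43.7 to 50.5) and 52.9% in the control EVs (50.3 to 55.5).

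**Figure D3:**
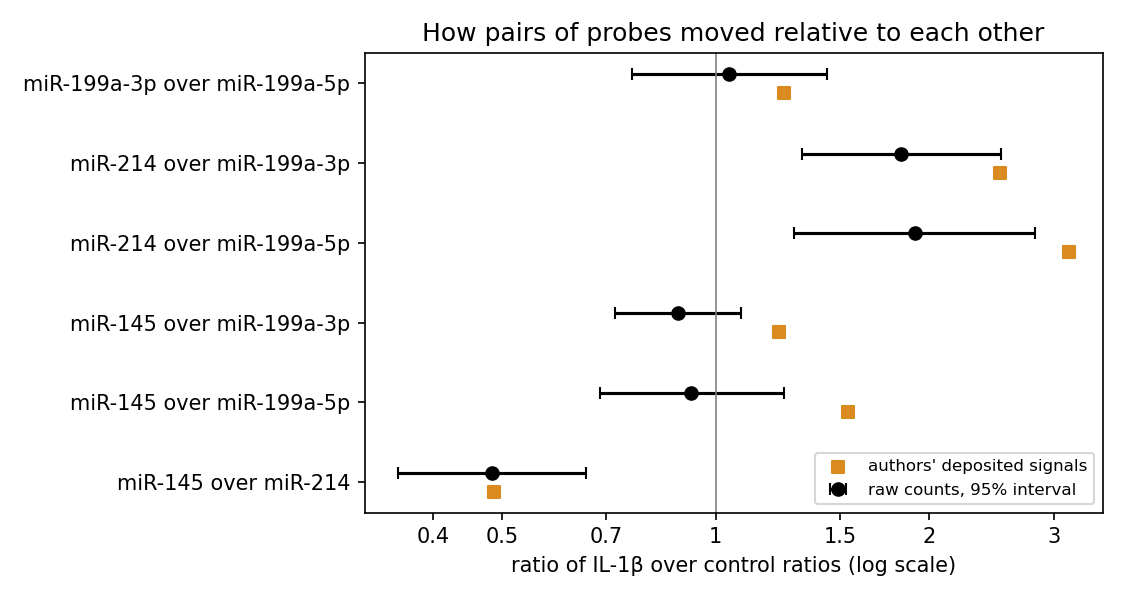
Ratio of the IL-1β over control ratios for 6 pairs of probes (log axis); black points are raw counts with exact 95% intervals and squares are the authors' deposited signals, which have no interval. Both sources place miR-214 above either miR-199a arm, at 1.83 and 1.91 from raw counts and 2.52 and 3.15 from signals.

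Besides the counts, a table of normalized signals was deposited by the authors, and it lists all 5 miRNAs. Its normalization is not stated in the labels or headers, so these signals have no interval. In the authors' deposited table, miR-145 had signals of 1155 in the IL-1β EVs and 858 in the control EVs, a ratio of 1.35. In the same deposited table, miR-199a-3p had 839 in the IL-1β EVs and 766 in the control EVs (ratio 1.095), and miR-199a-5p had 447 in the IL-1β EVs and 510 in the control EVs (ratio 0.877). The deposited signals of miR-214 were 178 in the IL-1β EVs and 64.5 in the control EVs, a ratio of 2.76. Of the 119 probes that have a signal in each sample, the deposited values put 9.24% higher by 2-fold or more, miR-214 with them, and 8.4% lower by that much, with no member.

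The raw counts and the deposited signals thus had opposite directions for miR-145 and miR-199a-3p, the same direction below 1 for miR-199a-5p, and different sizes for miR-214. The deposited signals summed over the 5 gave a ratio of 1.18, where the raw counts gave 0.657. The pairs that hold miR-214 kept their direction. From the deposited signals, the ratio of ratios was 2.52 for miR-214 over miR-199a-3p, 3.15 for miR-214 over miR-199a-5p and 0.487 for miR-145 over miR-214. The deposited value of the last pair was within the raw interval. That of the first was at the upper end of its interval, and the second lay above its own. Those of miR-145 over miR-199a-3p (1.23) and over miR-199a-5p (1.54) also lay above their raw intervals. They were on the other side of 1 from the raw values of 0.885 and 0.924, whose intervals spanned 1. That of miR-199a-3p over miR-199a-5p (1.25) was within its raw interval.

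The sources also differed for miR-143. In the authors' deposited table it had signals of 41.1 in the IL-1β EVs and 51.2 in the control EVs, above the lowest deposited signals of 18.4 and 16.6 and below the median of 94 in both. The deposited table lists a ratio of 0 for it, while its signals give 0.804. The deposited signal per raw count was 13.7 in the IL-1β EVs and 12.8 in the control EVs for miR-143. It was 2.91 in the IL-1β EVs and 1.11 in the control EVs for miR-145, and 1.62 in the IL-1β EVs and 0.620 in the control EVs for miR-214. No common factor per sample therefore links the signals of the members to their counts.

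**Figure D4:**
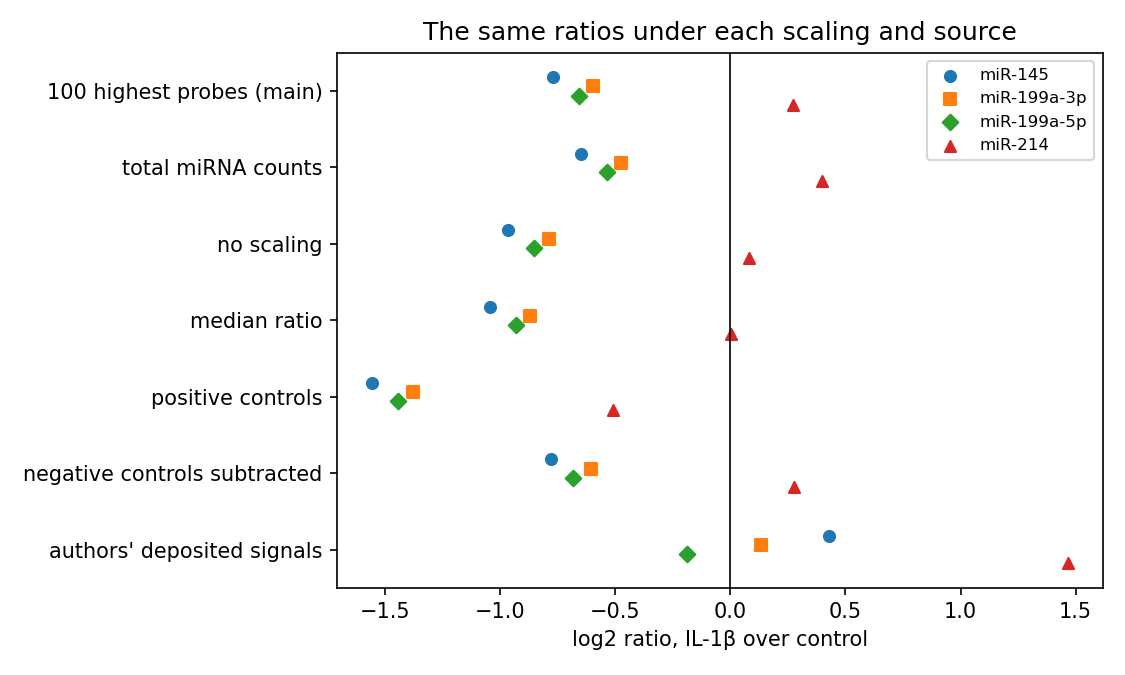
The log2 ratio of IL-1β over control of the 4 detected members under each scaling of the raw counts, with background subtracted, and from the authors' deposited signals. In every row miR-214 lies to the right of the other members, and the miR-145 and miR-199a-3p points lie right of 0 in the bottom row alone.

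Other miRNAs known from mural cells, smooth muscle and fibroblasts were mostly at background, as were most of all miRNA probes. Of the 16 probes on this list, 4 were above it in the IL-1β EVs and 6 in the control EVs. Of all 420 probes, 146 were above it in the IL-1β EVs and 185 in the control EVs. The 16 summed to 161 counts in the IL-1β EVs and 178 in the control EVs. None was called at 2-fold, and the median log2 ratio of the 4 with a value was 0.22, near the 0.24 of all probes with a value. The list's median fell below 0 with each other scaling except total counts. A change of scaling moves every log2 ratio by the same amount, so such a fall is not particular to this list. The highest was miR-21, a miRNA raised in fibrosis and in many stressed cells, with 46 counts in the IL-1β EVs and 71 in the control EVs (ratio 0.740, 0.499 to 1.09). It was followed by miR-28 with 13 counts in the IL-1β EVs and 28 in the control EVs, and by miR-152 with 24 in the IL-1β EVs and 15 in the control EVs. The muscle probe miR-133a, also counted among the muscle probes below, and the smooth muscle probe miR-490 were below background in both samples. So were the fibroblast and posterior-body probes miR-10a-5p, miR-10b and miR-196a. Of the related miR-196 probes, miR-196c had 14 counts in the IL-1β EVs and 6 in the control EVs, above background in the first alone and not called. The miR-196b probe had 7 counts in the IL-1β EVs and 9 in the control EVs, above background in the control EVs alone. No probe of this list came near the miR-145 or miR-199a-3p counts. Whether mural cells or fibroblasts of the cortex express each miRNA of this list was not measured.

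Probes for other cells were set beside them. Of 11 astrocyte and neural probes, 8 were above background in both samples, beside 139 of all 420. The 11 summed to 2866 counts in the IL-1β EVs (21.2% of miRNA counts) and 4257 in the control EVs (25.3%). Of the 8, 4 were called lower and 0 higher. Among the lower were miR-181a at a ratio of 0.352 (0.304 to 0.407) and miR-27a at 0.471 (0.385 to 0.574), while miR-125b-5p stood at 1.02 (0.948 to 1.09). The ratios of the 8 ran from 0.316 (miR-100) to 1.26 (miR-29a). This range is wide, so the place of the miR-145 ratio within it tells nothing of its origin. The neural miR-9 probe had 0 counts in the IL-1β EVs and 1 in the control EVs. Endothelial probes, which would mark vessel lining, summed to 48 counts in the IL-1β EVs and 46 in the control EVs over 3 probes, with miR-126, the most endothelial of them, at 7 in the IL-1β EVs and 10 in the control EVs.

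Low counts were also found for microglia and leukocytes, with sums of 23 in the IL-1β EVs and 26 in the control EVs over 4 probes, and for oligodendrocytes, with 7 in the IL-1β EVs and 9 in the control EVs over 2 probes. Neuron probes summed to 21 counts in the IL-1β EVs and 71 in the control EVs over 6 probes, most of it miR-132, at 13 in the IL-1β EVs and 58 in the control EVs. Epithelial probes summed to 27 in the IL-1β EVs and 30 in the control EVs over 7 probes. The erythroid, liver and serum probes miR-122, miR-144 and miR-451 summed to 13 counts in the IL-1β EVs and 22 in the control EVs, with miR-122 at 5 in the IL-1β EVs and 15 in the control EVs. Muscle probes held 0.947% of the miRNA counts in the IL-1β EVs and 0.678% in the control EVs over 6 probes, most of it miR-208, at 77 counts in the IL-1β EVs and 59 in the control EVs, whose name carries a background factor. The cells that released miR-145, miR-199a and miR-214 were not measured, and the part of contaminating cells in these counts was not tested.

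Among the other probes with a mean count of at least 100, those with ratios nearest to that of the summed members were let-7b (0.733), miR-99a (0.522), miR-23a (0.510) and miR-130a (0.866). Their log2 ratios differed from the members' by 0.16, 0.33, 0.37 and 0.40. This likeness is over 2 samples and 32 eligible probes, and is a description.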

How the data were processed

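Small RNAs of 2 EV preparations were tagged and counted on the nCounter system with a rat miRNA code set. The deposited raw files hold reporter counts per probe, with no normalization, and 1139 (IL-1β) and 1121 (control) of 1150 fields of view counted, per the file headers. A table deposited by the authors gives normalized signals and their ratio (fold change) of IL-1β over control; no label or header states how they were normalized. The value table repeated these signals.

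Probes were matched by name. Ratios, exact intervals and scaling were computed in Python 3.11.15 with scipy 1.17.1 and numpy 2.4.6. The ratio intervals were tested on simulated Poisson counts with a known scaling and no background filter. That test bears on counting error only, not on scaling error, off-target signal or spread between preparations. Where only 1 sample passed background, a bound was set with the threshold of the other. Named miRNAs were the 5 members, up to 4 probes per list with the highest mean count, and the 4 nearest ratios; others named were chosen after their values were seen. The list of other arms of the member hairpins matched 0 probes. The members, lists and tests were chosen with earlier results of these data known. The labels did not say whether the preparations were separate cultures. Alternatives were other scalings, background subtraction, thresholds, a 1.5-fold minimum and the deposited signals.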

Additional observations from a re-analysis of the deposited data

How the results depend on the processing

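With total counts as the scaling, 0 of the 5 raw ratios (4 members and their sum) moved beyond its interval. Scaling on positive controls gave 0.340 for miR-145, 0.384 for miR-199a-3p, 0.368 for miR-199a-5p, 0.702 for miR-214 and 0.382 for the sum; the median ratio gave 0.484, 0.547, 0.524, 1.00 and 0.544; and no scaling gave 0.512 for miR-145 and 0.575 for the sum. Deposited signals reversed miR-145 (1.35), miR-199a-3p (1.095) and the sum (1.18), and gave 0.877 for miR-199a-5p and 2.76 for miR-214; the cause was not tested. Members called lower were 0 with the main scaling, 3 with positive controls, 1 with the median ratio and 3 at 1.5-fold. Over all probes, 9 higher and 15 lower calls became 0 and 46 with positive controls, 2 and 24 with the median ratio, 19 and 26 at 1.5-fold, 4 higher with no scaling and 15 higher with total counts. The members' share became 6.78% in the IL-1β EVs and 9.38% in the control EVs with the negative-control mean subtracted, and 5.02% in the control EVs with deposited signals. Deposited signals moved the ratio of ratios to 3.15 for miR-214 over miR-199a-5p, 1.23 for miR-145 over miR-199a-3p and 1.54 for miR-145 over miR-199a-5p. The median log2 ratio of the other mural and fibroblast list was -0.49 with positive controls, a scaling that moved every log2 ratio by -0.78. No paired analysis was possible because each group held 1 sample. At 3 and 4 counts, the depth gives no direction for miR-143.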

Other observations

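The mature miR-214 seed is shared in the RefSeq mouse table by 1 other name, miR-761, whose probe had 2 counts in the IL-1β EVs and 1 in the control EVs, below background in both. The probe for miR-3120, a miRNA known in human from the strand opposite to the miR-214 hairpin, had 4 counts in each sample, also below background. Both probes were chosen after their counts were seen.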
